A study of Mus musculus with 12 samples.

Results

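The genes described here encode the machinery that copies DNA in S phase. They are 43 named genes of the pathway, found by symbol, and all 43 were present among the 55401 genes of the counts table. The samples are left ventricles of mice, profiled by mRNA sequencing in 4 groups of 3 libraries each that cross a genotype with a surgery. The genotypes were Prkca T497A, an amino acid substitution in protein kinase C alpha, and wild type (WT). The surgeries were transverse aortic constriction (TAC), which narrows the aortic arch around a 27-gauge needle and puts a pressure load on the left ventricle, and sham. The groups are called T497A TAC, WT TAC, T497A sham and WT sham. In every group surgery was at 10 weeks of age and tissue was taken 1 week later, at 11 weeks. The labels state neither the sex of the mice nor how many copies of Prkca carry the substitution, and nothing states that libraries came from separate animals, so p-values measure the spread between these libraries.

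Replication starts at origins bound by the origin recognition complex, where Cdc6 and Cdt1 load rings of the MCM helicase in G1 phase. Kinases then add Cdc45 and the GINS complex to the ring, the strands separate, and primase, polymerases, the sliding clamp and DNA ligase make the new strands on a supply of deoxynucleotides. E2F transcription factors drive many of these genes as cells enter S phase. Most cardiomyocytes of the adult mouse have left the cell cycle, while interstitial cells such as fibroblasts, endothelial cells and macrophages can still divide.

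Levels are CPM, read counts scaled to a common library size with trimmed mean of M values (TMM) factors, from 58932759 to 72594085 counted reads per library. All 43 genes were among the 17699 genes tested after a filter on low counts. A gene is called when its Benjamini-Hochberg adjusted p over all tested genes is under 0.05 in the quasi-likelihood test of edgeR, and each log2 fold change is given with its standard error. The tissue label is left ventricle and the cell type label is cardiomyocyte, but marker genes of other cell types were present in every group, so the values are those of ventricular tissue. The X-inactivation RNA Xist stood at 160 to 215 CPM in the T497A sham libraries and at 0.751 CPM or less in the 9 others, while the Y-linked Ddx3y stood at 0.396 CPM or less in T497A sham and at 73.7 to 108 CPM elsewhere. Of 104 autosomal genes called at least 4-fold apart between the sham groups, 95 had the opposite sign of difference after TAC, 71 of them called, and 9 the same sign, 1 of them called. On chromosome 11 lay 33 of the 104, and the replication genes Cdc6, Tk1 and Rpa1 are on that chromosome too. A gene count does not show a point substitution, so genotype names here are those of the labels. Whether names were exchanged between groups was not tested; if so, the TAC comparisons within a label and the interaction would set other groups against each other than their names say. Each comparison with T497A sham also sets libraries without Y-linked transcripts against libraries with them. Mitochondrial genes took 19.2 to 19.8% of reads in T497A TAC, 9.67 to 14.7% in WT TAC, 16.0 to 17.3% in T497A sham and 19.1 to 20.99% in WT sham.

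E2F factors bind short GC-rich sites, often close to the start of replication genes, so promoter sequence of a few members is shown beside their values. Windows of 250 bases before to 50 after the start came from RefSeq on GRCm38.p6. They were found for 34 of the 43 genes, all but Mcm4, Gmnn, Gins1, Gins2, Gins4, Prim2, Pole, Rfc2 and Ccne2. Each window was searched on both strands for TTCCCGC, or TTCGCGC, or TTGCCGC, or TTGGCGC. The stretches below are read 5′ to 3′ on the strand of the gene, lie before the RefSeq start, and have the matched letters in capitals. By the gene positions of GENCODE, those of Cdc6 and Prim1 lie inside the gene, and those of Rpa2 and Rpa3 cross its start. Of the 38 windows of these genes, 31 had the bases after their start near the 5′ end of a GENCODE transcript. A run of 10 capitals is a pair of overlapping matches on opposite strands.
Mcm5: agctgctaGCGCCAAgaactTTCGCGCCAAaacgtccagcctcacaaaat
Mcm6: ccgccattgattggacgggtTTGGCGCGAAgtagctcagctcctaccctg
Cdc6: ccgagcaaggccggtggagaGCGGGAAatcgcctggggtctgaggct
Prim1: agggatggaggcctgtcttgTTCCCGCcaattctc
Chaf1a: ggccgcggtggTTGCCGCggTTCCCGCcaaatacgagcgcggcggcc
Rpa2: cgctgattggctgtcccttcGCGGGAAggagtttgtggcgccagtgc
Rpa3: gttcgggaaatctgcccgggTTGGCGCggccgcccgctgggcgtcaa

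The stretches of Mcm5 (chr8:75109337-75109386, plus strand), Mcm6 (chr1:128359722-128359771, minus strand), Cdc6 (chr11:98907993-98908039, plus strand), Prim1 (chr10:128015180-128015214, plus strand) and Chaf1a (chr17:56040349-56040395, plus strand) belong to genes that rose after TAC. That of Rpa2 (chr4:132768303-132768349, plus strand) belongs to a gene called lower in WT TAC, and that of Rpa3 (chr6:8259144-8259190, minus strand) to one not called. A match was found in the windows of 22 of the 34 genes (64.7%), against 2936 of all 27025 genes with a window (10.9%). Before the start alone the shares were 47.1% of the replication genes and 9.01% of all genes, and with 1 more T in front of each motif they were 35.3% and 2.60%. Over the 20977 genes of the counts table with a window, a closer background, the shares were 12.7%, 10.5% and 2.98% in the same order. By the call for TAC against sham averaged over genotypes, a match was found for 15 of 25 genes called higher, 2 of 3 called lower and 5 of 6 not called. A gene with several windows was counted once, with a match in any of them. Genes with and without a match were therefore found among those that rose. No match was found, for example, for E2f1, Mcm10, Tyms, Tk1 and Pcna, which says only that these letters are not in these windows. A match is a description of the sequence, not a measured binding site.

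Per kilobase of exon, levels of these genes spanned a wide range in ventricle. In WT sham the highest mean levels were those of Gmnn (28.9 CPM per kb), which encodes the licensing inhibitor geminin, the sliding clamp gene Pcna (12.1 CPM per kb) and Rpa1 (11.73 CPM per kb), the largest subunit gene of the single-strand binding protein RPA. The lowest were those of Mcm10 (0.0630 CPM per kb), an initiation factor, and Orc1 (0.0544 CPM per kb), the largest subunit gene of the origin recognition complex. The counts behind these were small, down to 2 reads for Mcm10 and 3 for Orc1 in a sham library. The summed level of the 43 genes was 453 to 484 CPM in T497A TAC and 470 to 531 CPM in WT TAC, against 397 to 416 CPM in T497A sham and 405 to 416 CPM in WT sham. Each TAC library was thus above each sham library in the sum.

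**Figure D1:**
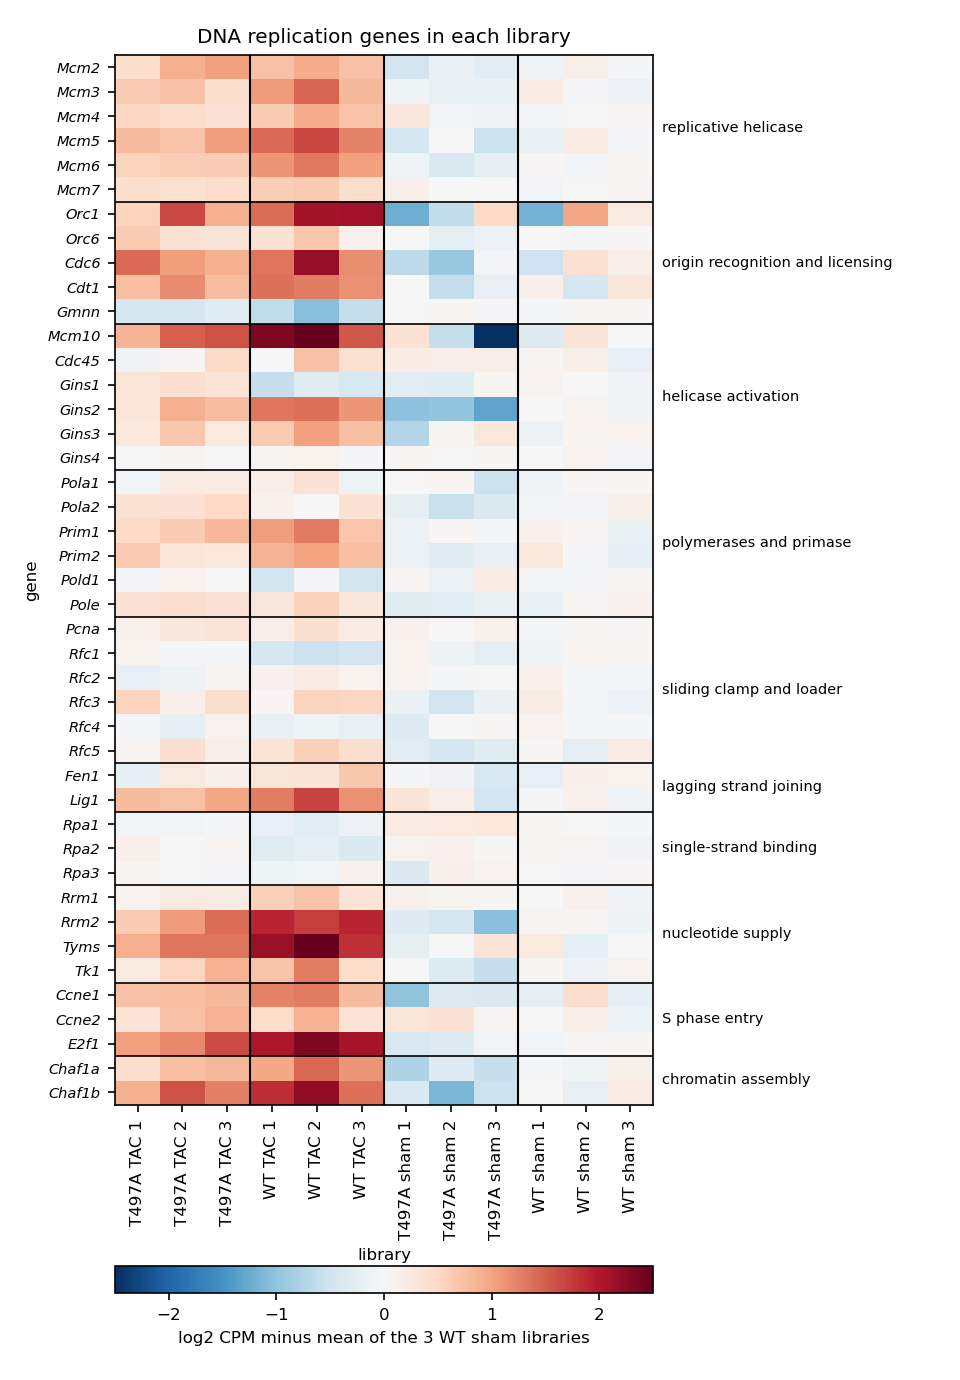
Level of each of the 43 genes (rows, grouped by role) in each of the 12 libraries (columns), as log2 CPM minus the mean of the 3 WT sham libraries. The MCM genes, Cdc6, Cdt1, Rrm2, Tyms, E2f1 and the Chaf1 genes are above 0 in all 6 TAC libraries, whereas Gmnn is below 0 in all 6.

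TAC against sham asks how pressure overload moves these genes, and most of them were higher after TAC under both labels. In T497A TAC against T497A sham, 26 of the 43 were called higher and 2 lower, where 12.9% of all tested genes were called higher and 11.4% lower. In WT TAC against WT sham, 28 were called higher and 5 lower, where 25.9% of all tested genes were called higher and 24% lower. The median log2 fold change of the 43 was 0.64 in T497A (all tested genes 0.00) and 0.58 in WT (all tested genes 0.03). Of the genes called higher, 12 in T497A and 16 in WT rose at least 2-fold, which was not counted over all tested genes. With no overlap between the libraries of a comparison, 27 genes were higher and 2 lower in T497A TAC than in T497A sham, where 20.9% of all tested genes were higher and 19.8% lower in this way. In WT TAC against WT sham 29 were higher and 7 lower without overlap, where 31.2% of all tested genes were higher and 29% lower. Genes called higher in both comparisons numbered 23, of the 26 in T497A and the 28 in WT, 2 were called lower in both and 7 were called in neither. None was called in opposite directions in this main fit, while Gins1 was in 4 alternative settings. These shared calls were not counted over all tested genes. Averaged over genotypes, which does not depend on how the genotype names were assigned within a surgery, 30 were called higher and 4 lower, where 24.8% of all tested genes were called higher and 23.6% lower, with a median of 0.52. The 4 were Gmnn, Rpa1, Rfc1 and Rpa2, of which Rfc1 (-0.01), Rpa1 (-0.07) and Rpa2 (0.03) were not called with library totals in place of TMM factors, and Rpa2 was not called in 5 of the 12 fits without 1 library (T497A TAC 2, WT TAC 3, T497A sham 2, WT sham 1 or WT sham 2, adjusted p 0.054 to 0.063) or without the filter on low counts (0.094). In these whole-tissue libraries, more dividing cells and more RNA per cell cannot be told apart. Scaling by library totals in place of TMM factors moved the median of all genes in WT from 0.03 to 0.36 and the split of the WT calls to 37 members higher and 1 lower, with the median of the 43 at 0.92, while 8466 of all tested genes were then called higher and 1891 lower.

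**Figure D2:**
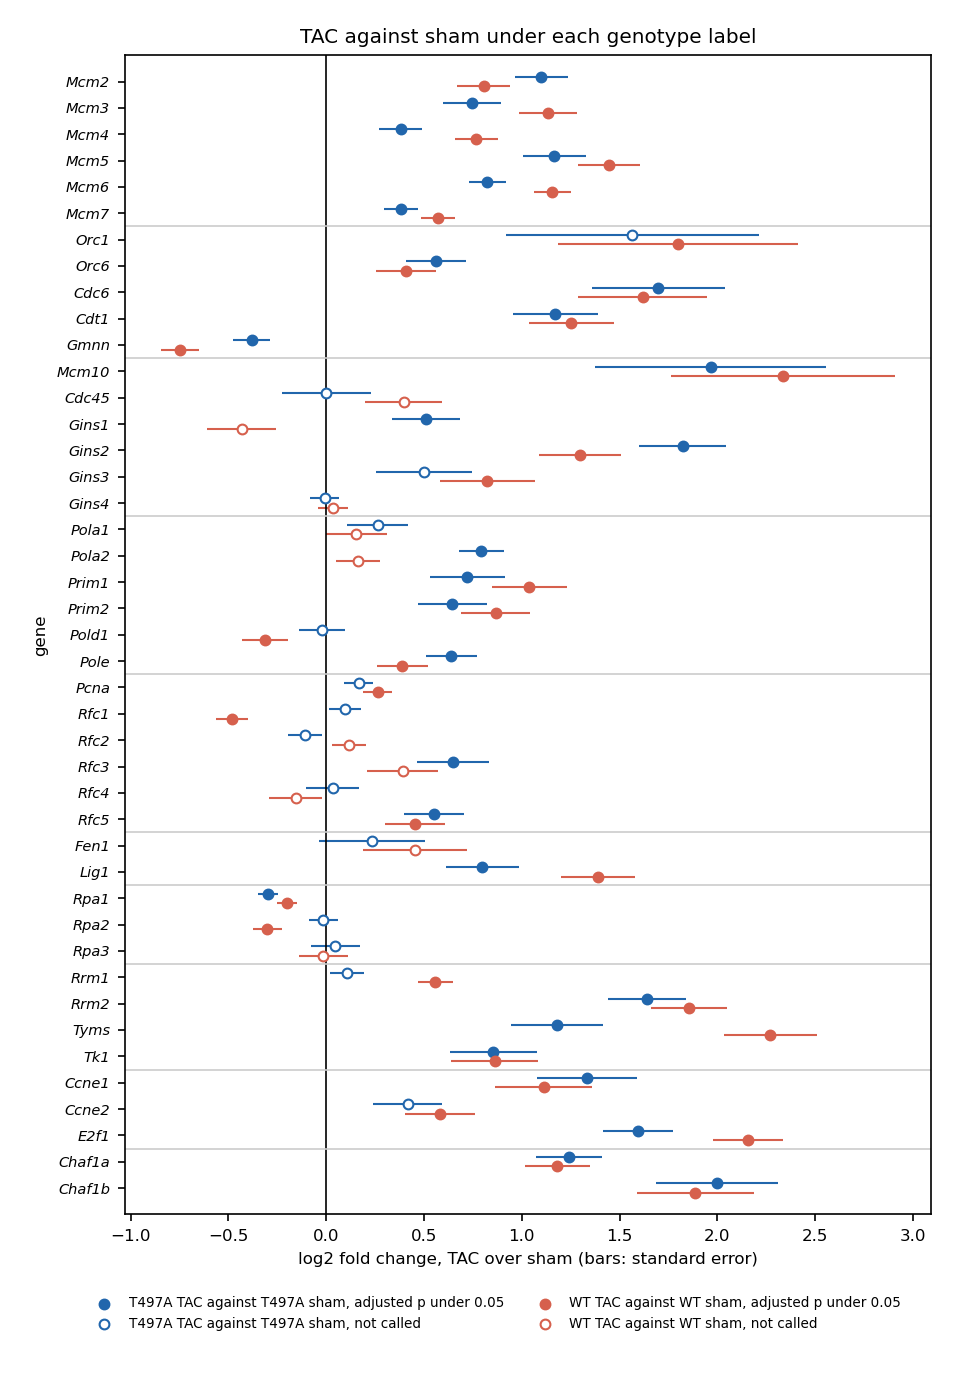
Log2 fold change of TAC over sham (horizontal axis, bars are standard errors) for each of the 43 genes under the T497A label (blue, upper of each pair) and the WT label (red, lower), with filled points called at an adjusted p under 0.05. Most points lie to the right of 0 under both labels; the WT points of Rpa1, Rpa2 and Pold1 lie left of it and move to its right when library totals replace the TMM factors.

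The markers of dividing cells moved with these genes. The summed level of 6 such markers (Mki67, Top2a, Cdk1, Ccnb1, Birc5 and Plk1, genes of mitosis and late cell cycle) was 50.7 to 85.3 CPM in T497A TAC and 95.7 to 142 CPM in WT TAC, against 7.36 to 17.95 CPM in T497A sham and 19.6 to 20.3 CPM in WT sham, and all 6 were called higher in both TAC comparisons. Macrophage markers summed to 316 to 339 CPM in T497A TAC and 472 to 747 CPM in WT TAC, against 263 to 300 CPM in T497A sham and 228 to 276 CPM in WT sham, with 3 of 7 called higher in T497A and 7 of 7 in WT. Fibroblast markers summed to 956 to 1498 CPM in T497A TAC and 3941 to 8029 CPM in WT TAC, against 831 to 989 CPM in T497A sham and 782 to 894 CPM in WT sham, with 2 of 6 called higher in T497A and 6 of 6 in WT. These fibroblast markers include the matrix genes Col1a1 and Postn. In WT TAC these stood at 1626 to 4170 CPM and 1283 to 2676 CPM, the largest parts of the sum. Dcn stood at 711 to 733 CPM in WT TAC and 454 to 520 CPM in WT sham, and Lum at 232 to 355 and 61.1 to 75.8 CPM. Pdgfra stood at 69.6 to 78.8 and 53.1 to 54.9 CPM, and Tcf21 at 16.0 to 18.8 and 7.0 to 9.4 CPM. In T497A Dcn, Lum, Pdgfra and Tcf21 overlapped between TAC and sham. Endothelial markers summed to 936 to 1024 CPM in T497A TAC and 907 to 1111 CPM in WT TAC, against 649 to 753 CPM in T497A sham and 814 to 852 CPM in WT sham, with 4 of 6 called higher in T497A and 5 of 6 in WT. Cardiomyocyte markers summed to 54820 to 58700 CPM in T497A TAC and 29840 to 36280 CPM in WT TAC, against 67780 to 68720 CPM in T497A sham and 63140 to 68450 CPM in WT sham, with 4 of 8 called lower in T497A and 8 of 8 in WT. Lymphocyte markers summed to 3.69 CPM or less in every library. Atrial markers summed to 246 to 526 CPM in T497A TAC and 2541 to 2848 CPM in WT TAC, against 301 to 944 CPM in T497A sham, with the highest in T497A sham 3, and 123.3 to 300 CPM in WT sham. Of these 5, Nppa, the natriuretic peptide gene, was called higher under both labels, and 4 were called lower in T497A and 1, Stard10, in WT. Nppa stood at 2415 to 2793 CPM in WT TAC, most of that sum. Myl7, Myl4 and Sln ranged from 3.86 to 66.0 CPM in WT TAC and from 1.49 to 16.5 CPM in T497A TAC. They ranged from 11.0 to 324 CPM in T497A sham and from 0.947 to 84.5 CPM in WT sham. Mural markers summed to 1156 to 1598 CPM and erythroid markers to 128 to 350 CPM over the 12 libraries. No marker was at 0 in a whole group, and the part of any cell type in the rise of the replication genes was not tested.

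**Figure D3:**
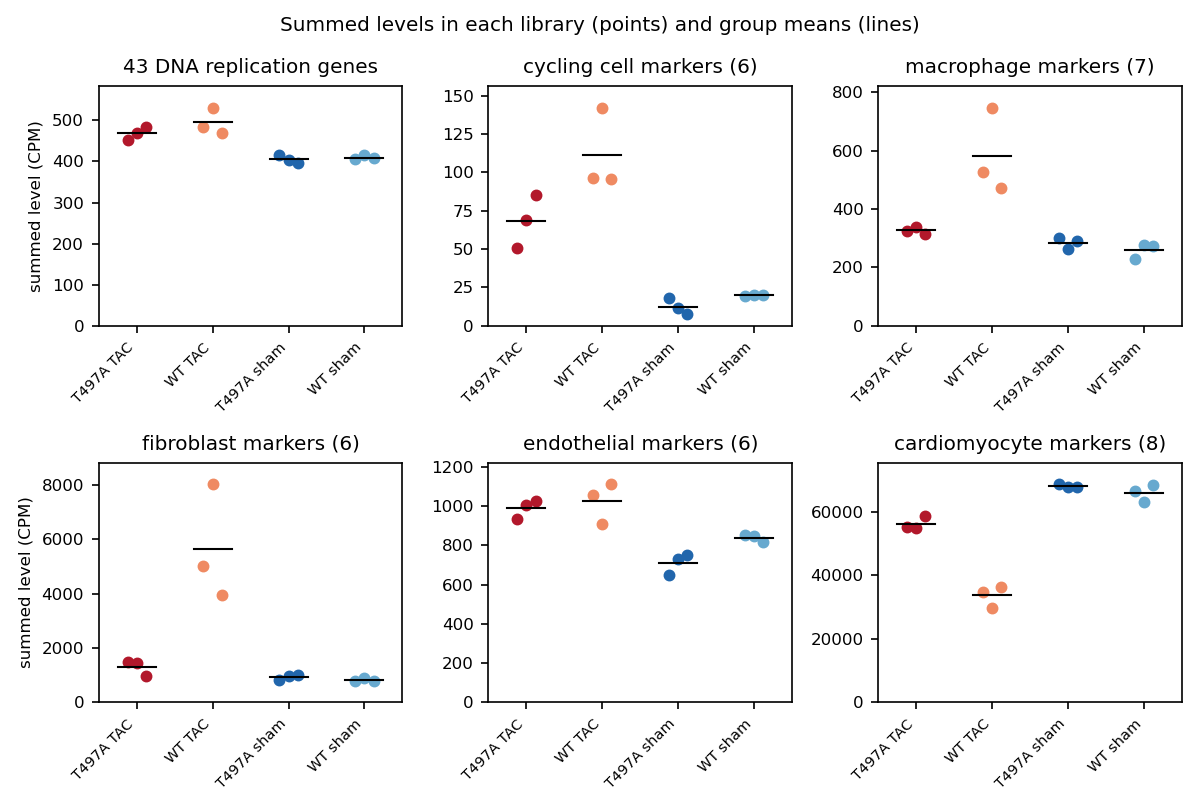
Summed CPM of the 43 replication genes and of 5 marker lists (number of genes in brackets) in each library, with group means as lines. Cycling cell markers are at 50.7 CPM or more in all 6 TAC libraries and at 20.3 CPM or less in all 6 sham libraries, and the macrophage and fibroblast sums are highest in WT TAC.

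All 6 genes of the MCM ring, the motor of the replicative helicase, rose after TAC under both labels. Mcm5 (chromosome 8, 75109569 to 75128439, plus strand, GRCm38) stood at 9.85, 9.31 and 11.8 CPM in T497A TAC, against 4.21, 5.67 and 3.93 CPM in T497A sham. In WT TAC it stood at 15.2, 18.1 and 13.5 CPM, against 5.10, 6.59 and 5.51 CPM in WT sham. No TAC library overlapped a sham library, and the log2 fold change was 1.17 ± 0.16 in T497A (adjusted p = 0.00014) and 1.45 ± 0.16 in WT (adjusted p = 3.9e-06). The other members of the ring rose by 0.38 (Mcm4, Mcm7) to 1.1 (Mcm2) in T497A and by 0.57 (Mcm7) to 1.16 (Mcm6) in WT. Mcm6 had the smallest adjusted p of the ring in both, 3.3e-05 in T497A and 2.6e-07 in WT. The T497A call of Mcm4 was lost without T497A sham 2, T497A sham 3, T497A TAC 1 or T497A TAC 2 (adjusted p 0.057 to 0.088).

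Among the genes that recognise and license origins, the loading factors rose and their inhibitor fell. Cdc6 (chromosome 11, 98907801 to 98923940, plus strand), the loading ATPase, stood at 2.49, 1.92 and 1.73 CPM in T497A TAC, against 0.572, 0.457 and 0.865 CPM in T497A sham. The WT TAC libraries had 2.35, 4.26 and 2.09 CPM, against 0.631, 1.19 and 1.01 CPM in WT sham. Its libraries separated by surgery under both labels, with log2 fold changes of 1.70 ± 0.34 in T497A (adjusted p = 0.0024) and 1.62 ± 0.33 in WT (adjusted p = 0.00084). Cdt1, the partner of Cdc6 in loading, rose by 1.17 ± 0.22 in T497A and 1.25 ± 0.22 in WT. Orc6, the smallest subunit gene of the origin recognition complex, rose by 0.56 ± 0.15 in T497A and 0.41 ± 0.15 in WT. Orc1 averaged 0.370 ± 0.163 CPM in T497A TAC and 0.124 ± 0.0964 CPM in T497A sham (SD, n = 3 each), a difference that was not called (1.56 ± 0.65, adjusted p = 0.094). It averaged 0.657 ± 0.176 CPM in WT TAC and 0.189 ± 0.140 CPM in WT sham (SD, n = 3 each) and was called (1.80 ± 0.61, adjusted p = 0.024).

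Gmnn (chromosome 13, 24751845 to 24761923, minus strand) moved against them. Its product geminin binds Cdt1 and blocks a second loading of MCM rings. Gmnn stood at 31.7, 31.8 and 34.0 CPM in T497A TAC, against 42.1, 44.0 and 41.1 CPM in T497A sham. It was at 27.3, 20.3 and 28.02 CPM in WT TAC, against 40.9, 43.04 and 42.99 CPM in WT sham. All 6 TAC libraries lay under all 6 sham libraries. It fell by 0.38 on the log2 scale in T497A (adjusted p = 0.0098) and by 0.75 in WT (adjusted p = 1.6e-05), and with library totals in place of TMM factors by 0.35 in T497A and by 0.42 in WT. The WT call of Orc1 was lost without WT sham 1, WT sham 3, WT TAC 2 or WT TAC 3 (adjusted p 0.060 to 0.092). That of Orc6 was lost without any single WT sham library, WT TAC 1, WT TAC 2 or T497A TAC 2 (0.057 to 0.22) and in a fit of only the groups compared (0.068), and its T497A call without T497A sham 2 or T497A TAC 1 (0.057 to 0.071).

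Genes for the activation of the helicase did not move as one. Mcm10 (chromosome 2, 4989714 to 5012791, minus strand) stood at 0.880, 1.40 and 1.49 CPM in T497A TAC, against 0.621, 0.305 and 0.0333 CPM in T497A sham. Values were 2.53, 3.37 and 1.45 CPM in WT TAC, against 0.375, 0.605 and 0.473 CPM in WT sham. Each TAC library was above the sham libraries of its label, and the log2 fold change was 1.97 ± 0.59 in T497A (adjusted p = 0.030) and 2.33 ± 0.57 in WT (adjusted p = 0.0042). The T497A call was lost without T497A sham 2, T497A TAC 2 or T497A TAC 3 (adjusted p 0.082 to 0.085), without the filter on low counts (0.091) and in a fit of only the groups compared (0.075). The GINS complex, a scaffold between helicase and polymerase, has 4 subunit genes. Gins2 rose under both labels, by 1.82 ± 0.22 in T497A and 1.30 ± 0.21 in WT. It shares 67.3% of its exon bases with Gse1 on the opposite strand, whose own log2 fold change was 0.04 in T497A and -0.40 in WT, and the strand setting of the counting is not given in the sources used here. Gins3 was not called in T497A (0.50 ± 0.24, adjusted p = 0.16) and rose in WT (0.82 ± 0.24, adjusted p = 0.011). Gins4, at 13.3 to 15.0 CPM in every library, was called in neither, with log2 fold changes of -0.01 ± 0.08 in T497A and 0.04 ± 0.08 in WT. Cdc45, which joins the ring together with GINS, was called in neither as well (-0.00 ± 0.23 in T497A, 0.40 ± 0.20 in WT).

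Gins1 (chromosome 2, 150905400 to 150931280, plus strand) had estimates of opposite sign under the labels. It stood at 2.58, 2.77 and 2.63 CPM in T497A TAC, against 1.72, 1.71 and 2.18 CPM in T497A sham. In WT TAC it stood at 1.40, 1.69 and 1.58 CPM, against 2.23, 2.11 and 1.96 CPM in WT sham. The T497A TAC libraries were the 3 highest of the 12 and the WT TAC libraries the 3 lowest. Gins1 was called in T497A (0.51 ± 0.17, adjusted p = 0.046) and not in WT (-0.43 ± 0.18, adjusted p = 0.054). With DESeq2 size factors, the DESeq2 test, limma-voom or robust estimation off, it was called lower in WT and still higher in T497A. The T497A call was lost without any 1 library other than T497A sham 3 and WT TAC 2 (adjusted p 0.057 to 0.13), and also without the filter on low counts (0.15), with a replicate block (0.067) and in a fit of only the groups compared (0.073).

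Of the polymerase and primase genes, those of primase rose under both labels. Prim1 (chromosome 10, 128015168 to 128030037, plus strand), the catalytic primase subunit that makes RNA primers, stood at 2.34, 2.60 and 2.93 CPM in T497A TAC, against 1.47, 1.71 and 1.598 CPM in T497A sham. The WT TAC libraries had 3.39, 4.08 and 2.67 CPM, against 1.76, 1.72 and 1.45 CPM in WT sham. The groups did not overlap by surgery, and the log2 fold change was 0.72 ± 0.19 in T497A (adjusted p = 0.014) and 1.04 ± 0.19 in WT (adjusted p = 0.00038). Prim2, the regulatory subunit gene, rose by 0.64 ± 0.18 in T497A and 0.87 ± 0.17 in WT. Pole, the catalytic subunit gene of the leading strand polymerase epsilon, rose by 0.64 ± 0.13 in T497A and 0.39 ± 0.13 in WT. The T497A calls were lost without T497A TAC 3 for Prim1 (adjusted p = 0.057) and without T497A sham 2 or T497A TAC 1 for Prim2 (0.054 to 0.075), and the WT call of Pole without WT sham 1 or WT TAC 2 (0.11 to 0.12), without the filter on low counts (0.060) and in a fit of only the groups compared (0.056).

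The subunits of polymerase alpha, which extends the primers, differed. Pola2, the accessory subunit gene (chromosome 19, 5940542 to 5964202, minus strand), stood at 14.04, 13.7 and 15.2 CPM in T497A TAC, against 9.14, 7.27 and 8.40 CPM in T497A sham. It was at 11.6, 10.7 and 13.8 CPM in WT TAC, against 10.2, 10.2 and 11.8 CPM in WT sham. The T497A groups were apart and the WT groups overlapped. Pola2 rose in T497A (0.79 ± 0.11, adjusted p = 0.00022) and was not called in WT (0.16 ± 0.11, adjusted p = 0.26). Across the labels it was called in T497A TAC against WT sham (0.41 ± 0.11, adjusted p = 0.035) and in WT TAC against T497A sham (0.54 ± 0.11, adjusted p = 0.0011). The first of these calls was lost without any single T497A TAC library, WT TAC 1, WT sham 1 or WT sham 2 (adjusted p 0.053 to 0.13). Pola1, the catalytic subunit gene, was called in neither (0.26 ± 0.16 in T497A, 0.15 ± 0.16 in WT). Pold1, the catalytic subunit gene of the lagging strand polymerase delta, was not called in T497A (-0.02 ± 0.12) and was called lower in WT (-0.31 ± 0.12, adjusted p = 0.039), where its value was 0.03 with library totals in place of TMM factors. That WT call was lost without any single WT sham library, WT TAC 1 or WT TAC 3 (adjusted p 0.064 to 0.16), with a filter of 1 CPM in 6 libraries (0.057) and in a fit of only the groups compared (0.050). It was also lost with a replicate block (0.052).

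The sliding clamp and its loader showed small changes. Pcna, the ring that holds polymerases on DNA, was not called in T497A (0.17 ± 0.08, adjusted p = 0.13) and rose in WT (0.26 ± 0.08, adjusted p = 0.0090). Rfc5, a small loader subunit gene, rose by 0.55 ± 0.15 in T497A and 0.45 ± 0.15 in WT. Rfc3 was called in T497A (0.65 ± 0.18, adjusted p = 0.019) and not in WT (0.39 ± 0.18, adjusted p = 0.088). Rfc2 and Rfc4 were called in neither, with log2 fold changes between -0.16 and 0.12. Rfc4 shares 12.7% of its exon bases with Eif4a2 and Rfc2 15.1% with Lat2, each on the opposite strand. The log2 fold change of Eif4a2 was -0.17 in T497A and -0.58 in WT. That of Lat2, which averaged 1.13 CPM, was 0.28 in T497A and 1.73 in WT. Leaving out 1 library ended the T497A calls of Rfc3 (T497A sham 2, T497A TAC 1 or T497A TAC 3, adjusted p 0.053 to 0.072, and with limma-voom 0.053) and Rfc5 (T497A sham 2 or T497A TAC 2, 0.060 to 0.097), and the WT call of Rfc5 (WT sham 1, WT sham 2 or WT TAC 2, 0.055 to 0.11).

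Rfc1 (chromosome 5, 65261850 to 65335670, minus strand), the large loader subunit gene, was called in the other direction in WT. It stood at 55.4, 50.4 and 51.1 CPM in T497A TAC, against 55.3, 47.6 and 43.8 CPM in T497A sham. Values were 39.1, 35.7 and 37.4 CPM in WT TAC, against 48.8, 54.9 and 52.9 CPM in WT sham. The WT TAC libraries were the 3 lowest of the 12. Rfc1 was called lower in WT (-0.48 ± 0.08, adjusted p = 0.00018) and not called in T497A (0.10 ± 0.08, adjusted p = 0.42). With library totals in place of TMM factors the WT value was -0.15 and was not called (adjusted p = 0.15).

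Of the genes that finish the lagging strand, the ligase rose. Lig1 (chromosome 7, 13277283 to 13311433, plus strand), which seals Okazaki fragments, stood at 7.35, 7.09 and 8.38 CPM in T497A TAC, against 5.31, 4.77 and 3.05 CPM in T497A sham. In WT TAC it stood at 10.3, 13.8 and 9.38 CPM, against 4.16, 4.59 and 4.02 CPM in WT sham. All 6 TAC libraries were above all 6 sham libraries, with log2 fold changes of 0.80 ± 0.19 in T497A (adjusted p = 0.0067) and 1.39 ± 0.19 in WT (adjusted p = 2.6e-05). Fen1, the flap endonuclease gene, was called in neither (0.23 ± 0.27 in T497A, 0.46 ± 0.27 in WT). It stood at 0.549 to 1.20 CPM over the 12 libraries, and 78.8% of its exon bases lie opposite the antisense gene Gm10143, which averaged 0.00979 CPM.

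The 3 genes of RPA, which coats single-stranded DNA in replication and also in repair, were not called higher with TMM factors. Rpa2 (chromosome 4, 132768332 to 132778752, plus strand) stood at 16.1, 14.8 and 15.3 CPM in T497A TAC, against 15.6, 16.0 and 15.0 CPM in T497A sham. The WT TAC libraries had 12, 12.5 and 11.5 CPM, against 15.1, 15.4 and 13.8 CPM in WT sham. The T497A groups overlapped, and the WT TAC libraries were the 3 lowest of the 12. Rpa2 was not called in T497A (-0.01 ± 0.08) and was called lower in WT (-0.30 ± 0.08, adjusted p = 0.0042), where its value was 0.03 with library totals in place of TMM factors. Rpa1 (chromosome 11, 75298166 to 75348324, minus strand) stood at 62.7, 62.2 and 63.3 CPM in T497A TAC, against 75.0, 77.8 and 78.2 CPM in T497A sham. It was at 57.0, 54.4 and 59.2 CPM in WT TAC, against 66.7, 65.5 and 64.0 CPM in WT sham. It was called lower under both labels, at -0.30 ± 0.05 in T497A (adjusted p = 0.00082) and -0.20 ± 0.05 in WT (adjusted p = 0.0040), but with library totals the WT value turned to 0.13 (adjusted p = 0.026), under the all-gene median of 0.36 on that scale. Rpa3 was called in neither (0.05 ± 0.12 in T497A, -0.01 ± 0.12 in WT).

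**Figure D4:**
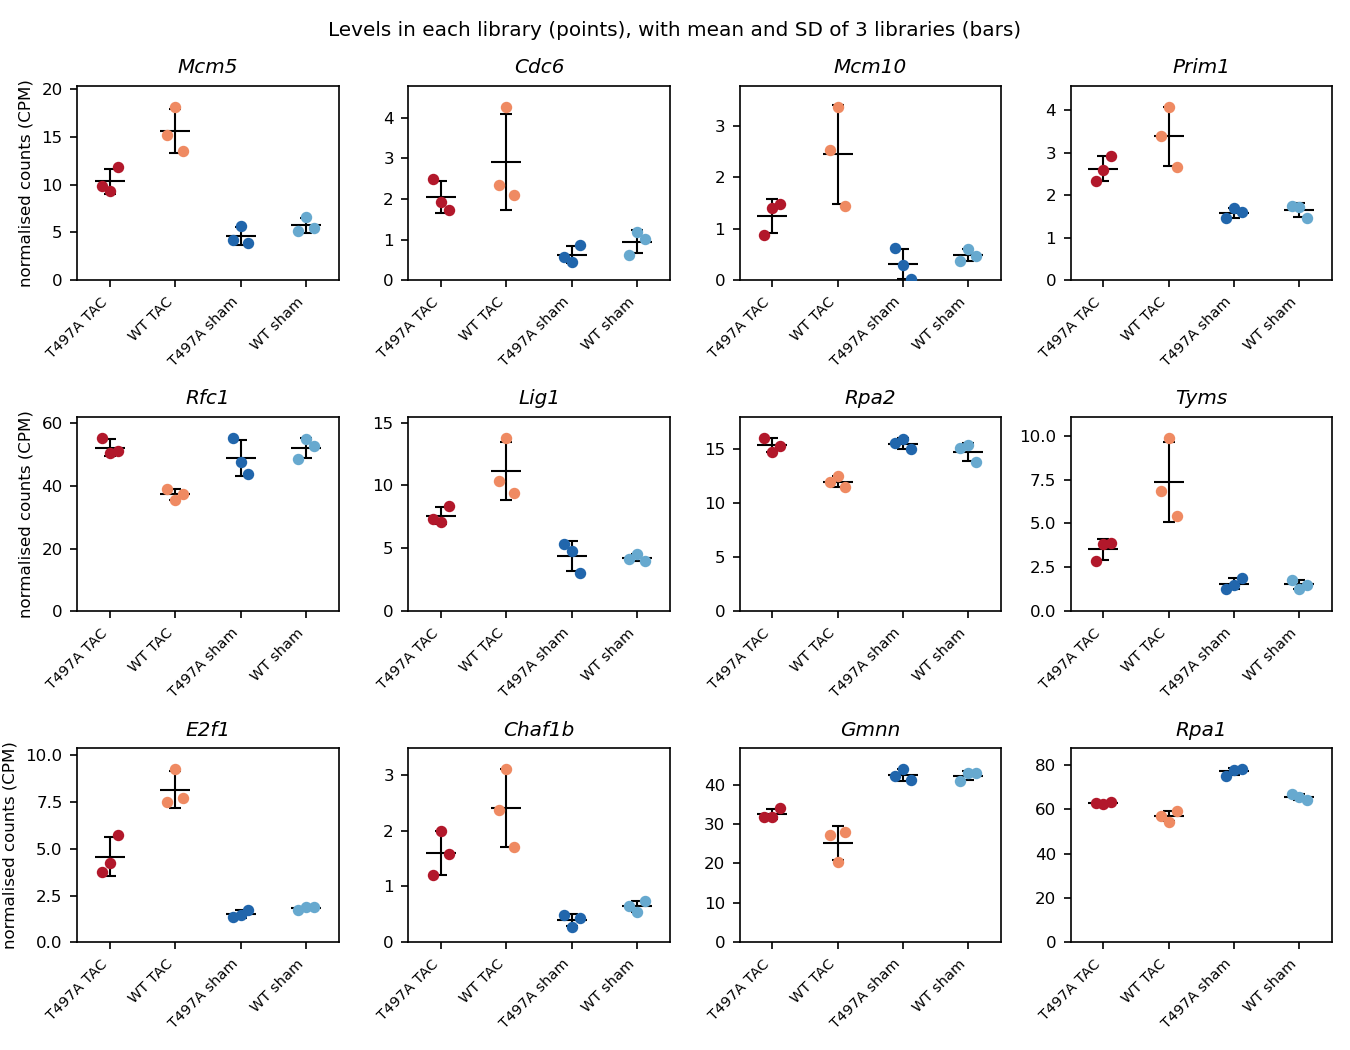
CPM in each library (points), with the mean and SD of 3 libraries (bars), for the named member of each role and for Gmnn and Rpa1. In Mcm5, Lig1, Tyms, E2f1 and Chaf1b all 6 TAC libraries are above all 6 sham libraries, while in Gmnn they are all below. Rpa1 and Rpa2 are lowest in WT TAC on this TMM scale, and their WT fold changes turn positive with library totals.

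The enzymes of deoxynucleotide supply held some of the largest rises. Tyms (chromosome 5, 30058202 to 30073617, minus strand), thymidylate synthase, stood at 2.85, 3.85 and 3.89 CPM in T497A TAC, against 1.27, 1.51 and 1.90 CPM in T497A sham. Values were 6.83, 9.88 and 5.43 CPM in WT TAC, against 1.79, 1.28 and 1.505 CPM in WT sham. All TAC libraries were above all sham libraries and the WT TAC libraries were the 3 highest. The log2 fold change was 1.18 ± 0.24 in T497A (adjusted p = 0.0024) and 2.27 ± 0.24 in WT (adjusted p = 2.7e-06). Rrm2, the subunit gene of ribonucleotide reductase that is made in S phase, rose by 1.64 ± 0.20 in T497A and 1.85 ± 0.20 in WT. Rrm1, the large subunit gene, was not called in T497A (0.11 ± 0.09, adjusted p = 0.43) and rose in WT (0.56 ± 0.09, adjusted p = 0.00010). Tk1, the thymidine kinase of S phase, rose by 0.85 ± 0.22 in T497A and 0.86 ± 0.22 in WT, and its T497A call was lost without T497A sham 3 or T497A TAC 3 (adjusted p = 0.059 each).

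Of the 3 genes of S phase entry, 2 rose in T497A and 3 in WT. E2f1 (chromosome 2, 154559407 to 154569892, minus strand), the transcription factor, stood at 3.73, 4.26 and 5.74 CPM in T497A TAC, against 1.37, 1.43 and 1.75 CPM in T497A sham. In WT TAC it stood at 7.48, 9.28 and 7.71 CPM, against 1.74, 1.87 and 1.88 CPM in WT sham. The 4 groups overlapped only between T497A sham and WT sham, and the log2 fold change was 1.59 ± 0.18 in T497A (adjusted p = 3.0e-05) and 2.16 ± 0.18 in WT (adjusted p = 3.2e-07). Ccne1, a cyclin E that activates CDK2 at the start of S phase, rose by 1.33 ± 0.26 in T497A and 1.11 ± 0.25 in WT. Ccne2, the other cyclin E, was not called in T497A (0.42 ± 0.18, adjusted p = 0.10) and was called in WT (0.58 ± 0.18, adjusted p = 0.013), a call lost without WT sham 3 or WT TAC 2 (adjusted p 0.059 to 0.075). Ccne2 shares 17.4% of its exon bases with Ints8 on the opposite strand. Ints8 averaged 17.2 CPM, with a log2 fold change of -0.33 in T497A (adjusted p = 0.043) and 0.34 in WT (adjusted p = 0.019). Its part in the Ccne2 values was not tested.

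Both subunit genes of chromatin assembly factor 1 in the set, which places histones on new DNA, rose under both labels. Chaf1b (chromosome 16, 93883901 to 93906115, plus strand) stood at 1.21, 2.00 and 1.57 CPM in T497A TAC, against 0.490, 0.274 and 0.433 CPM in T497A sham. The WT TAC libraries had 2.38, 3.11 and 1.71 CPM, against 0.648, 0.550 and 0.744 CPM in WT sham. All TAC libraries were above all sham libraries, and the log2 fold change was 2.00 ± 0.31 in T497A (adjusted p = 0.00040) and 1.89 ± 0.30 in WT (adjusted p = 0.00011). Chaf1a rose by 1.24 ± 0.17 in T497A and 1.18 ± 0.17 in WT. It shares 52.5% of its exon bases with Ubxn6 on the opposite strand, whose log2 fold change was -0.15 in T497A and -0.29 in WT.

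T497A TAC against WT TAC asks whether the loaded ventricle differs by genotype label, and the genes that were called were mostly lower in T497A TAC. Of the 43, 12 were called lower and 6 higher, where 17.9% of all tested genes were called lower and 17.8% higher. The median log2 fold change was -0.30 (all tested genes -0.02). With library totals in place of TMM factors 21 were called lower and 2 higher, while the median of all genes moved to -0.27 and that of the 43 to -0.57, and 6874 of all tested genes were called lower and 1458 higher. Called lower were Mcm3, Mcm4, Mcm5 and Mcm6 of the helicase ring, Gins2, Prim2, Lig1, Rrm1, Rrm2, Tyms, E2f1 and Chaf1a. Tyms averaged 3.53 ± 0.587 CPM in T497A TAC and 7.38 ± 2.27 CPM in WT TAC (SD, n = 3 each), and its log2 fold change of -1.06 ± 0.22 (adjusted p = 0.0020) was the largest fall. E2f1 averaged 4.58 ± 1.04 CPM in T497A TAC and 8.16 ± 0.976 CPM in WT TAC (-0.83 ± 0.17, adjusted p = 0.0014), and Rrm2 averaged 8.04 ± 2.08 CPM in T497A TAC and 13.9 ± 0.972 CPM in WT TAC (-0.79 ± 0.19, adjusted p = 0.0047). Mcm5 fell by 0.60 (adjusted p = 0.0075) and Mcm6 by 0.56 (adjusted p = 0.00031) on the log2 scale. Mcm2 was level between the groups, at 15.6 ± 3.09 CPM in T497A TAC and 15.6 ± 1.24 CPM in WT TAC (SD, n = 3 each; -0.00 ± 0.13).

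The 6 genes called higher in T497A TAC than in WT TAC included the 5 that had been called lower by TAC in WT. They were Gins1 (0.77 ± 0.17, adjusted p = 0.0031), Rfc1 (0.48 ± 0.08, adjusted p = 0.00035), Gmnn (0.37 ± 0.10, adjusted p = 0.0079), Rpa2 (0.36 ± 0.08, adjusted p = 0.0019), Pold1 (0.33 ± 0.12, adjusted p = 0.043) and Rpa1 (0.14 ± 0.05, adjusted p = 0.042), and these comparisons share the WT TAC libraries. With library totals in place of TMM factors Gmnn, Pold1 and Rpa2 stood at 0.12, 0.07 and 0.11 and were not called, and Rpa1 turned to -0.11. Other calls depended on 1 library. Those of Chaf1a and Lig1 were lost without WT TAC 2, T497A TAC 1 or T497A TAC 2 (adjusted p 0.063 to 0.13 and 0.082 to 0.14), and that of Mcm4 without WT TAC 2, T497A TAC 2 or T497A TAC 3 (0.086 to 0.12). That of Gins2 was lost without WT TAC 1, WT TAC 2, T497A TAC 1 or T497A TAC 3 (0.051 to 0.12). Without the filter on low counts, Gins2, Prim2 and Rpa1 were not called (0.075, 0.10 and 0.18), and in a fit of only the groups compared Pold1, Prim2 and Rpa1 were not (0.071, 0.065 and 0.075). With a replicate block Pold1 and Rpa1 were not called (0.058 and 0.061), nor was Pold1 with a filter of 1 CPM in 6 libraries (0.054). Prim2 was not called with DESeq2 size factors (0.0504) or in the fit without T497A sham (0.060). The calls of Pold1, Prim2 and Rpa1 were lost in 8, 9 and 10 of the 12 fits without 1 library (0.050 to 0.17). The Pold1 call was kept without WT TAC 2 or any single T497A sham library, that of Prim2 without T497A TAC 1, WT sham 1 or WT sham 3, and that of Rpa1 without WT TAC 3 or T497A sham 1. In the same comparison 4 of the 6 cycling cell markers, 7 of 7 macrophage markers and 6 of 6 fibroblast markers were called lower and 8 of 8 cardiomyocyte markers higher in T497A TAC, and their part in the differences was not tested.

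**Figure D5:**
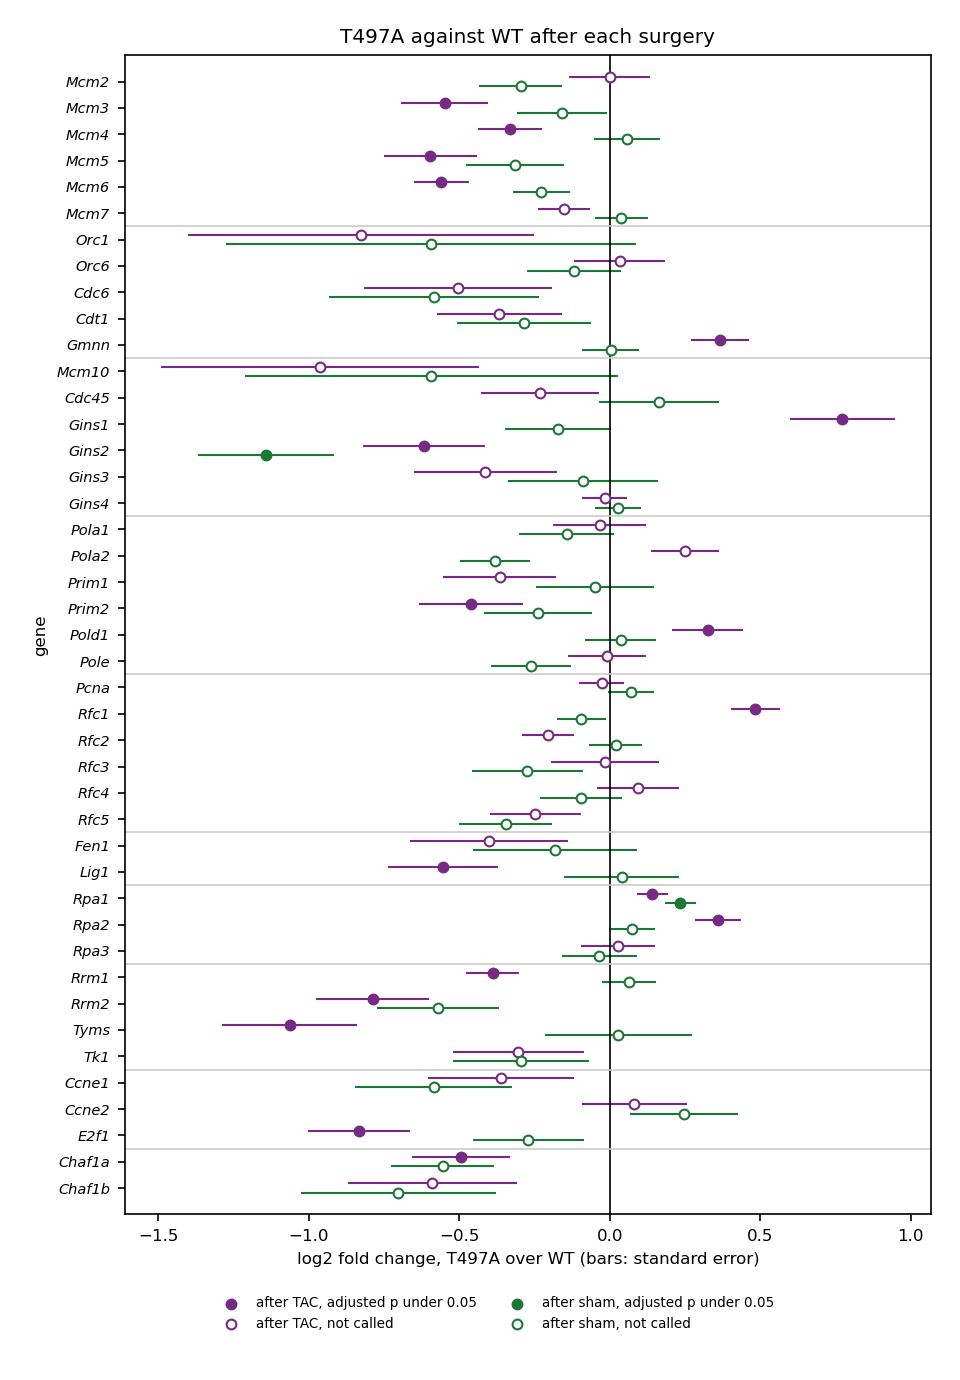
Log2 fold change of T497A over WT (horizontal axis, bars are standard errors) for each of the 43 genes after TAC (purple, upper of each pair) and after sham (green, lower), with filled points called at an adjusted p under 0.05. After TAC 12 filled points lie left of 0 and 6 right of it, with Rpa1, on the right, moving to -0.11 when library totals replace the TMM factors; after sham only Gins2 (left) and Rpa1 (right) are filled.

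Between the sham groups, which asks for a genotype difference without pressure load, few of the genes were called. T497A sham is without Y-linked transcripts and WT sham has them, so genotype label and this difference cannot be told apart here. Of the 43, 1 was called higher and 1 lower in T497A sham, where 2.99% of all tested genes were called higher and 2.80% lower. An unadjusted p under 0.05 was found for 9 of the 43, which was not counted over all tested genes. The median log2 fold change was -0.16 (all tested genes 0.00). Gins2 stood at 0.572, 0.594 and 0.466 CPM in T497A sham, against 1.19, 1.28 and 1.13 CPM in WT sham. These groups were well apart, with a log2 fold change of -1.14 ± 0.22 (adjusted p = 0.0083), a call kept in all alternatives. Rpa1 was higher in T497A sham, by 0.24 ± 0.05 (adjusted p = 0.014), a call lost without WT sham 2, WT sham 3 or T497A sham 3 (adjusted p 0.057 to 0.068). The test of DESeq2 called 4 members. Leaving out 1 library gave 1 to 4 called members, with 1 without WT sham 2, WT sham 3 or T497A sham 3 and 4 without WT TAC 2.

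The interaction of genotype and surgery tests whether the TAC response itself differs between the labels. For 11 of the 43 the unadjusted p was under 0.05, which was not counted over all tested genes. Of the 43, 3 were called with a larger and 2 with a smaller log2 fold change in T497A than in WT, where 15.3% and 14.2% of all tested genes were called in these directions. Gins1 (0.94 ± 0.25), Pola2 (0.63 ± 0.16) and Rfc1 (0.58 ± 0.11) were the 3, and Tyms (-1.09 ± 0.33) and Rrm1 (-0.45 ± 0.12) were the 2. For the other 38 genes, E2f1 among them (-0.56 ± 0.25, adjusted p = 0.11), a difference in response was not called, which does not show that the responses were alike. With library totals in place of TMM factors 12 were called, all with a smaller log2 fold change in T497A, as were 5694 of all tested genes against 1175 with a larger one. Without WT TAC 3 the count was 8. The Tyms call was lost without T497A TAC 1, WT TAC 2, T497A sham 3 or WT sham 2 (adjusted p 0.054 to 0.066).

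T497A TAC was also set against WT sham, since the genotype names are uncertain and the T497A sham libraries stand apart. All libraries of this comparison have Y-linked transcripts. Of the 43, 17 were called higher and 1 lower in T497A TAC, where 6.12% of all tested genes were called higher and 3.90% lower, with a median of 0.42 (all tested genes 0.00). All 6 MCM ring genes were called, from 0.42 ± 0.09 (Mcm7) to 0.85 ± 0.16 (Mcm5). E2f1 (1.32 ± 0.18, adjusted p = 0.00072), Chaf1b (1.30 ± 0.30, adjusted p = 0.015), Tyms (1.21 ± 0.24, adjusted p = 0.0066), Cdc6 (1.11 ± 0.33, adjusted p = 0.046) and Rrm2 (1.07 ± 0.20, adjusted p = 0.0045) were higher, and Gmnn was lower (-0.38 ± 0.10, adjusted p = 0.023). None of the helicase activation genes was called; Gins2 stood at 0.68 ± 0.21 (adjusted p = 0.054), against 1.82 with T497A sham as the control. The count rested on single libraries, at 8 without WT sham 1, 9 without WT sham 2, 11 without WT sham 3 and 8 without T497A TAC 2, and Gmnn was not called in these 4 fits nor without T497A TAC 1. Calls of Cdc6, Mcm3, Chaf1b and others were among those lost. Those of Mcm2, Mcm5, Mcm6, Mcm7, E2f1, Tyms and Rrm2 were kept in all alternatives. WT TAC against T497A sham gave 29 higher and 5 lower, where 25.6% of all tested genes were called higher and 24.6% lower, with a median of 0.71.

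Further genes of the pathway were counted from lists, all in TAC against sham averaged over genotypes, where 24.8% of all tested genes were called higher and 23.6% lower. Of 33 other replisome and origin genes, 17 (51.5%) were called higher and 3 (9.09%) lower (median 0.33). The checkpoint mediator Clspn rose by 2.34 ± 0.18, Dbf4, the activator of the kinase that fires origins, by 1.30 ± 0.13, the nuclease and helicase gene Dna2 by 1.41 ± 0.17 and the initiation scaffold Topbp1 by 0.47 ± 0.06. Called lower were Pold2 (-0.31 ± 0.06), the second subunit gene of polymerase delta, the origin recognition gene Orc4 (-0.23 ± 0.05) and the topoisomerase gene Top1 (-0.16 ± 0.05). Of 13 other genes of chromatin replication, 9 (69.2%) were called higher and 2 (15.4%) lower (median 0.40). Uhrf1, which guides maintenance DNA methylation, rose by 1.86 ± 0.17, the chromatin remodeller Hells by 1.80 ± 0.18, Tonsl by 1.49 ± 0.21 and its partner Mms22l by 1.58 ± 0.22. The histone chaperone genes Rbbp7 (-0.13 ± 0.04) and Asf1a (-0.22 ± 0.08) were called lower.

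Of 15 other genes of nucleotide supply, 4 (26.7%) were called higher and 4 (26.7%) lower (median 0.01), shares near those over all tested genes. Deoxycytidine kinase, Dck (0.82 ± 0.10), and CTP synthase, Ctps (0.46 ± 0.06), rose, while Dut, the dUTPase gene (-0.56 ± 0.06), and the purine synthesis gene Gart (-0.33 ± 0.05) were called lower. Of 25 regulators around E2F, RB and CDK2, 16 (64%) were called higher and 4 (16%) lower (median 0.41). Cyclin A2, Ccna2, rose by 2.83 ± 0.17 and Cdk4 by 0.37 ± 0.04. Called lower were Tfdp2 (-0.84 ± 0.06), a dimer partner of E2F factors, E2f6 (-0.40 ± 0.05), a repressor E2F, the pocket protein gene Rbl2 (-0.37 ± 0.06), which represses E2F targets in quiescent cells, and Cdkn1c (-0.57 ± 0.14), an inhibitor of cyclin-dependent kinases. The other E2F genes, described after their values were seen, comprised E2f2 (1.74 ± 0.23), E2f3 (0.56 ± 0.07), E2f7 (1.28 ± 0.16) and E2f8 (1.22 ± 0.14), which rose, and E2f4 and E2f5, which were not called (0.03 ± 0.06 and 0.14 ± 0.11). The genes of these lists were not tested in other settings.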

How the data were processed

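The samples were left ventricle libraries of 4 groups of 3, assigned by genotype and surgery in the labels. The authors deposited raw counts of reads, as whole numbers for each gene in 12 columns, and 0 columns of values were left unused. Per the submitters' processing notes the tools were Trim Galore 0.6.4, STAR 2.7.3a, featureCounts of Subread 1.6.3 and limma 3.50.3, with the builds mm10 and GRCh38 listed without a role. Neither the annotation release nor the strand setting nor the handling of multiply mapped reads is stated in those notes or labels. Per the labels' protocols, total RNA was purified on RNeasy columns, made into KAPA mRNA HyperPrep libraries and read single-end on a NextSeq2000, with 1 batch date for all.

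From these counts, genes were filtered with filterByExpr (17699 of 55401 tested) and scaled with TMM factors. The main test was edgeR 4.0.16 (quasi-likelihood F test, robust, R 4.3.3) fitted to all 12 libraries together with a mean per group, adjusted by Benjamini-Hochberg over all tested genes. An exact test of 3 libraries against 3 cannot go below p = 0.1. For the heat map, log2 CPM used a prior count of 2. The test was also run on simulated counts, where a small part of the genes was changed in a single group, equally up and down. Such counts do not cover a shift of many genes as in WT TAC, so nothing is concluded from them. Gene positions came from GENCODE M21 on GRCm38, where 260 IDs had no match, and promoters from RefSeq on GRCm38.p6.

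The members and lists were chosen with earlier results of these data known. Values in every library are given for the member of each role with the largest WT response at a mean of at least 1 CPM, and for members that moved against their role. Of each further list, up to 4 called genes with the smallest p and called genes that moved against the list are named. Alternatives were DESeq2 size factors, library totals, the DESeq2 1.42.0 test, limma-voom (limma 3.58.1), no filter, a filter of 1 CPM in 6 libraries, robust estimation off, a replicate block, only the groups compared, a fit without T497A sham, and each of the 12 libraries left out.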

Additional observations from a re-analysis of the deposited data

Results flagged for a closer look

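For 5 of the 43 genes (11.6%), against 29.5% of all tested genes, the TAC response differed between the labels, as tested by the interaction term of edgeR's quasi-likelihood test (T497A response minus WT response, log2 ± SE). Gins1, a subunit gene of the GINS complex, differed by 0.94 ± 0.25 (adjusted p = 0.011). Its 3 T497A TAC libraries were above its 3 T497A sham libraries and its 3 WT TAC libraries below its 3 WT sham libraries. Pola2, the accessory subunit gene of polymerase alpha, differed by 0.63 ± 0.16 (adjusted p = 0.0092). Rfc1, the large clamp loader subunit gene, differed by 0.58 ± 0.11 (adjusted p = 0.0019). These 3 differences stood at 0.64, 0.33 and 0.28 with library totals in place of TMM factors, where none was called (adjusted p = 0.059, 0.11 and 0.086). Tyms, thymidylate synthase, differed by -1.09 ± 0.33 (adjusted p = 0.023), a call lost without T497A TAC 1, WT TAC 2, T497A sham 3 or WT sham 2 (adjusted p 0.054 to 0.066). Rrm1, the large subunit gene of ribonucleotide reductase, differed by -0.45 ± 0.12 (adjusted p = 0.014). The interaction uses the T497A sham libraries, which are without Y-linked transcripts; the part of this in the 5 differences cannot be told apart.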

How the results depend on the processing

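Called members numbered 28 in T497A TAC against T497A sham, 33 in WT TAC against WT sham, 18 in T497A TAC against WT TAC, 34 in TAC against sham averaged over genotypes and 34 in WT TAC against T497A sham. Leaving out 1 library moved these to 21 to 28, 28 to 33, 12 to 17, 33 to 35 and 32 to 34, and other alternatives to 26 to 29, 30 to 38, 15 to 24, 32 to 36 and 32 to 38. Calls of 19, 24, 9, 31 and 28 members held in every alternative run. With library totals in place of TMM factors the WT values of Pold1, Rpa1 and Rpa2 turned to 0.026, 0.13 and 0.034, the averaged value of Rpa2 to 0.026 and Rpa1 in T497A TAC against WT TAC to -0.11, where the median of all genes was 0.36, 0.19 and -0.27 in these comparisons. The split of calls moved to 35 higher and 1 lower in the averaged comparison and to 36 and 2 in WT TAC against T497A sham. Between the sham groups 2 members became 4 with the DESeq2 test and 1 to 4 without 1 library. For the interaction 5 became 12 with library totals (0 with a larger change in T497A and 12 with a smaller one), 8 with limma-voom (6 and 2) and 4 to 8 without 1 library. T497A TAC against WT sham gave 18, with 8 to 21 without 1 library. Over all genes, 4315 calls in T497A TAC against T497A sham became 2840 without T497A TAC 2, and 1024 between the sham groups became 1697 with the DESeq2 test and 505 to 1607 without 1 library. The 1773 in T497A TAC against WT sham became 2736 with the DESeq2 test, 3969 with limma-voom, 2992 with only the groups compared and 623 to 2812 without 1 library. The cause was not tested. Replicate numbers did not pair the libraries (correlations of deviations from -0.113 to 0.0743, with 3 of 12 libraries closest to their own number), and the replicate block gave 27, 32, 16, 34 and 33 members in the order above, 3 between the sham groups, 5 for the interaction and 16 in T497A TAC against WT sham. A fit of only the groups compared could not be made for the interaction or the average, nor one without T497A sham where that group is compared. Counts as low as 2 reads limit Mcm10 and Orc1.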
